A study of Mus musculus with 8 samples.

Results

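Gastrocnemius and tibialis anterior (TA) muscles of Eif6+/- mice were compared with each other by gene expression microarray, using the channel of each array that held the Eif6+/- RNA. The series had 8 arrays with 2 colours, so 16 RNA samples in all. The 8 samples described here were chosen by their labels: the Cy5 (red) channel of 4 gastrocnemius arrays and of 4 TA arrays. Cy5 carried the Eif6+/- RNA on each array and Cy3 (green) carried RNA of the same muscle from a wild-type (WT) mouse, with the dyes swapped on 0 arrays. The mice were C57BL6 males aged 8 to 16 weeks, Eif6+/- animals being heterozygous for Eif6 in the whole body and WT animals their littermates. Eif6+/- and WT mice of like age were matched at random. Muscles were cleared of fat and connective tissue and frozen before total RNA was extracted. All 8 arrays lay on 1 slide and were read in 1 scan, with the gastrocnemius arrays in one row of the slide and the TA arrays in the other, so a difference between rows of the slide and a difference between muscles cannot be told apart.

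Eif6 is a translation factor that also takes part in making the large ribosomal subunit. Gastrocnemius, in the calf, is a muscle of mixed fibre types, whereas TA, at the front of the shin, is made mostly of fast glycolytic fibres. Slow fibres carry their own forms of the contractile proteins (myosin chains and troponins) and of the calcium pump, and rely on oxidative metabolism. Fast fibres carry other forms of these proteins, and fibres between these extremes carry the IIa and IIx myosins. Muscles of the limb also keep in the adult some expression of the transcription factors that set position in the embryo, among them Hox and T-box genes.

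The arrays of each muscle were set against one another over 9710 probes with a mean log2 signal above 9. The SD of the difference between Cy5 arrays 1 and 4 was 0.126 in gastrocnemius, against 0.198 to 0.271 for the other pairs of arrays. In TA it was 0.140 for arrays 1 and 4, against 0.209 to 0.291 for the others. Spots that carried the same probe on the same array differed with an SD of 0.180 to 0.220. Thus arrays 1 and 4 of each muscle differed by less than the measurement noise within an array, and were counted as 1 sample, by their mean. The WT channels of the same arrays did not show this, with an SD between arrays 1 and 4 of 0.330 in gastrocnemius and 0.319 in TA. The lowest SD between WT arrays was 0.213, for arrays 2 and 4 of TA, within the range of duplicate spots but not below it, so these were kept as separate samples. Some Eif6+/- arrays kept apart also lay within that range. These were gastrocnemius arrays 2 and 3 (0.198), TA arrays 1 and 2 (0.209) and TA arrays 2 and 4 (0.215). Whether the same Eif6+/- RNA was hybridised more than once was not tested. Unless stated otherwise, the results below therefore rest on 3 Eif6+/- samples of gastrocnemius and 3 of TA: sample 1 (the mean of arrays 1 and 4), sample 2 and sample 3. The p-values measure the spread between these samples, and whether a sample number marks the same mouse in both muscles is not stated.

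**Figure D1:**
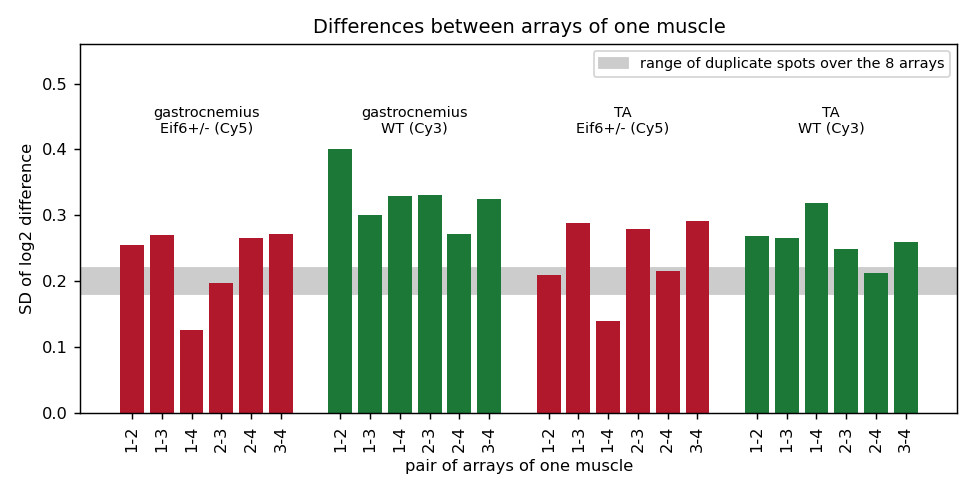
Bars give the SD of the log2 difference between each pair of arrays of 1 muscle over 9710 bright probes, for the Eif6+/- (Cy5) and WT (Cy3) channels, and the grey band is the range of the SD of duplicate spots over the 8 arrays. The Eif6+/- bars for arrays 1 and 4, 0.126 in gastrocnemius and 0.140 in TA, lie below the band.

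Eif6 itself was lower in the Eif6+/- channel than in the WT channel on each array. The log2 ratio of Eif6+/- to WT for its brightest probe was −0.92, −1.12, −0.91 and −1.01 on gastrocnemius arrays 1 to 4, and −1.21, −1.02, −0.94 and −0.80 on TA arrays 1 to 4. With the dyes never swapped, a dye effect on these ratios cannot be told apart from genotype. Between the Eif6+/- muscles Eif6 read 10.08, 10.27 and 10.27 in gastrocnemius samples 1 to 3 and 10.04, 9.99 and 10.06 in TA. These log2 signals did not overlap, but the difference of 0.18 did not pass the test (limma adjusted p = 0.279). Each Cy5 array had 43.6% to 48.6% of its probes well above background. Among tissue markers, all 12 skeletal muscle markers were measured in both muscles, with log2 differences from −0.33 to 0.36. Of 8 heart markers, Nppa, Nppb, Tnni3, Myl7 and Nkx2-5 were too dim to be kept. Gja5, Myh6 and Myl4 were kept, and Myl4 had mean log2 signals of 10.60 in gastrocnemius and 10.45 in TA. Neither list had a called member in limma; 3 and 1 of the kept genes had an unadjusted p under 0.05.

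Of the 13053 genes measured, 81 (0.621%) differed between Eif6+/- gastrocnemius and TA at a limma adjusted p under 0.05. Of these, 30 (0.23%) were higher in gastrocnemius and 51 (0.391%) were higher in TA. They are called genes in what follows. Among them Bglap2, Dct, Gm11757 and Sim1 were not well above background on any array of the dimmer muscle and were kept through the brighter muscle alone (Dct and Gm11757 are named after their values were seen). The median size of their difference was 0.71 on the log2 scale, and 31 differed at least 2-fold, 15 higher in gastrocnemius and 16 higher in TA. At the level of single probes, 126 of 25425 (0.496%) were called, 27 of them among 8612 without a gene name. All 81 genes had groups that did not overlap, which held for 3557 genes (27.3%) in all, and 2839 genes (21.7%) had an unadjusted p under 0.05. Counts of list members below are to be read against these shares. The first principal component, with 42.4% of the variance, separated the muscles.

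The count of called genes moved with the processing, with how samples were counted and with single samples. It was 12 with normexp offset 0, 3 with the replicate number as a block and 1 with Agilent's processed signal. With the 8 arrays taken as separate samples, 1165 genes (8.93%) were called, and 497 (3.81%) were called with 3 samples a muscle at an adjusted p under 0.1. Leaving out gastrocnemius sample 2 gave 9 genes and sample 3 gave 23 (52.2% higher in gastrocnemius), while leaving out TA sample 2 gave 12 and TA sample 3 gave 99 (58.6%). Without sample 1, 26 genes were called when it was left out of gastrocnemius and 23 when left out of TA. Scaling to spiked-in control RNAs in place of quantile normalization moved the median difference of all genes from −0.02 to −0.17 and gave 63 called genes, 66.7% of them higher in gastrocnemius and 25 of them among the 81. Signs under that scaling are to be read against its median of −0.17. Quantile normalization gave 37% of 81, and loess within arrays with Aquantile between them 23.6% of 55, so the balance between the muscles depended on the scaling and on single samples.

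**Figure D2:**
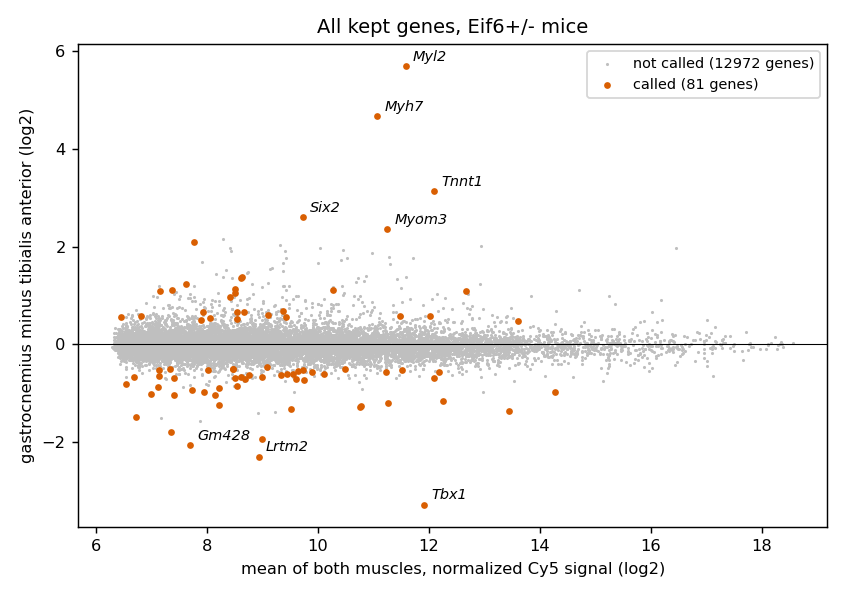
Each point is 1 of 13053 genes, with its mean log2 Cy5 signal on the horizontal axis and its log2 difference, Eif6+/- gastrocnemius minus TA (n = 3 samples each), on the vertical axis. The 81 called genes are orange, 30 above the line at 0 and 51 below it, with Myl2 (5.69) and Tbx1 (−3.28) at the extremes.

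The 3 genes with the largest differences towards gastrocnemius were slow fibre genes, and they are the 3 called members of a list of 15. Myl2, the regulatory light chain of slow and cardiac myosin, read 15.51, 13.88 and 13.90 in gastrocnemius samples 1 to 3 and 7.82, 9.48 and 8.90 in TA. The 3 gastrocnemius samples all lay above the 3 TA samples, by a mean of 5.69 (SE 0.51, a 51.8-fold difference, limma adjusted p = 0.00773). Myh7, the slow myosin heavy chain, read 15.21, 11.79 and 13.19 in gastrocnemius and 8.00, 8.70 and 9.49 in TA. Its difference was 4.67 (SE 0.76, 25.4-fold, adjusted p just under the threshold of 0.05). Tnnt1, the slow troponin T, read 14.99, 12.59 and 13.41 in gastrocnemius and 10.44, 10.85 and 10.31 in TA, a difference of 3.13 (SE 0.51, 8.74-fold, with the same adjusted p). In these 3 genes gastrocnemius sample 1 was the highest of all. Myh7 and Tnnt1 stood so near the threshold that each lost its call when any 1 gastrocnemius array was left out (Tnnt1 not without arrays 1 and 4 together) or any 1 TA sample, although neither changed direction. Over all alternatives their adjusted p reached 0.199 and 0.188. With cyclic loess both calls were lost too, while Myl2 kept its call under every alternative except Agilent's processed signal and the fit with the replicate number as a block.

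The promoters of these 3 genes are shown because they moved together. Each is the RefSeq sequence (GRCm38.p6) of 300 bases around a start of the gene, on the strand of the gene, and capitals mark matches on either strand to the E-box (CANNTG, the letters bound by MyoD family factors) and to MCAT (CATTCC, the letters bound by TEAD factors). The first Myl2 start lies at chr5:122092474-122092773 (plus strand) and the second at chr5:122092939-122093238 (plus strand). The first Myh7 start lies at chr14:54994577-54994876 and that of Tnnt1 at chr7:4515926-4516225, both on the minus strand. A second Myh7 start, at chr14:54994500-54994799 on the same strand, overlaps the first and is not printed.

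Myl2, first start: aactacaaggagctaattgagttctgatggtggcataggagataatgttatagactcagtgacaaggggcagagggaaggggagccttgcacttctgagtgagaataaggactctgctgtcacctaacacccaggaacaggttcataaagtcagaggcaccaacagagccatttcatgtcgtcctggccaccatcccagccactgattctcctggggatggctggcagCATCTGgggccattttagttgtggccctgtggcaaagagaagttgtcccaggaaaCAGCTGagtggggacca

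Myl2, second start: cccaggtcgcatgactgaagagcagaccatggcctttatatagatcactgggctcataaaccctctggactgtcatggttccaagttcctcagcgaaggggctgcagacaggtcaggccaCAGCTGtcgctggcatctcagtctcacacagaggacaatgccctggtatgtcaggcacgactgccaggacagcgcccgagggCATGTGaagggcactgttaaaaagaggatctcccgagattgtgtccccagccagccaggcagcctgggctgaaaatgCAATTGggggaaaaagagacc

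Myh7, first start: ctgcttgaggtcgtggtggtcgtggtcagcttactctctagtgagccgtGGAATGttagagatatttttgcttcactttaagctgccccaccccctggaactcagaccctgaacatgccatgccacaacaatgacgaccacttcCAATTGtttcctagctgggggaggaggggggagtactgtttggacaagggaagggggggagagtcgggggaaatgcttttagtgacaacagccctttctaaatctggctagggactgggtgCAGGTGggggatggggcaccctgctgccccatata

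Tnnt1: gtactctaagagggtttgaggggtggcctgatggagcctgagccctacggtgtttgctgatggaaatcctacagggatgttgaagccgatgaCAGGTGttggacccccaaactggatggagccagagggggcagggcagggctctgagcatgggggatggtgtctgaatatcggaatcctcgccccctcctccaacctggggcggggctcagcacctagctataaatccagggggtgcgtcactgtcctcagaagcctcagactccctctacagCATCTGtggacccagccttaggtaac

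The Myl2 windows held 2 and 3 E-boxes and those of Myh7 and Tnnt1 held 2 each. An MCAT match was found in the first Myh7 window, and the second, with 2 E-boxes, had none. An E-box is common: 72.3% of 32851 promoters of this length held one, and 14.7% held MCAT. Counted by gene, 75% of 27025 genes had an E-box and 16.6% MCAT in at least 1 promoter. Of the 15 slow fibre genes 14 had a promoter in the reference, and an E-box was found in all 14 and MCAT in 3. Fast fibre genes had E-boxes in 9 and MCAT in 5 of the 11 with a promoter. MEF3 (TCAGGTT, in 4.07% of promoters), MEF2 (3.19%) and the CArG box (1.63%), searched by the same rule, had 0 matches in the 4 windows. Over the lists, MEF2 matches were found in 2 of the 14 slow and 3 of the 11 fast fibre genes (3.7% of all genes), CArG matches in 1 and 1 (1.81%) and MEF3 matches in 0 and 0 (4.73%). A match describes the letters only, and binding was not measured.

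Of the 15 slow fibre genes, all were measured, 3 were called higher in gastrocnemius and 0 higher in TA. The groups did not overlap for 10, and 11 had a positive difference, with a median of 1.68 against −0.02 over all genes. The median was 0.91 in WT. Tnni1, the slow troponin I, read 10.55, 8.38 and 9.25 in gastrocnemius and 7.28, 7.67 and 7.49 in TA, and its difference of 1.91 did not pass the test (adjusted p = 0.0959). Tnnc1, the troponin C of slow and cardiac muscle, read 10.52, 8.19 and 9.39 against 7.06, 7.49 and 7.06, a difference of 2.16 (adjusted p = 0.0887). Atp2a2, the calcium pump of slow fibres, read 11.76, 9.14 and 10.18 in gastrocnemius and 8.34, 8.52 and 8.51 in TA, a difference of 1.90 (adjusted p = 0.128). The groups did not overlap in these 3 genes, and again gastrocnemius sample 1 was highest and sample 2 lowest. Csrp3 (1.88), Myoz2 (1.65) and Myh7b (1.68), which code for a LIM protein, a calcineurin-binding sarcomere protein and a further slow-type myosin, had like differences without passing the test. The 4 differences that were not positive were those of Pln, which restrains the slow calcium pump (−0.15), Casq2, the calsequestrin of slow and cardiac muscle (−0.14), Myl6b (−0.11) and Tpm3 (−0.01), none past the test. That of Casq2 changed sign when the 8 arrays were taken as separate samples. The groups overlapped for Casq2, Myl6b, Tpm3, Ankrd2 and Myl3 (14.34 to 16.37 in gastrocnemius, 13.46 to 14.97 in TA for the last). The number called was 9 of 15 with spiked-in scaling and also with the 8 arrays as separate samples. It was 1 with cyclic loess, with loess and Aquantile and without any 1 TA sample, among others, and 0 with Agilent's processed signal and with the replicate number as a block.

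**Figure D3:**
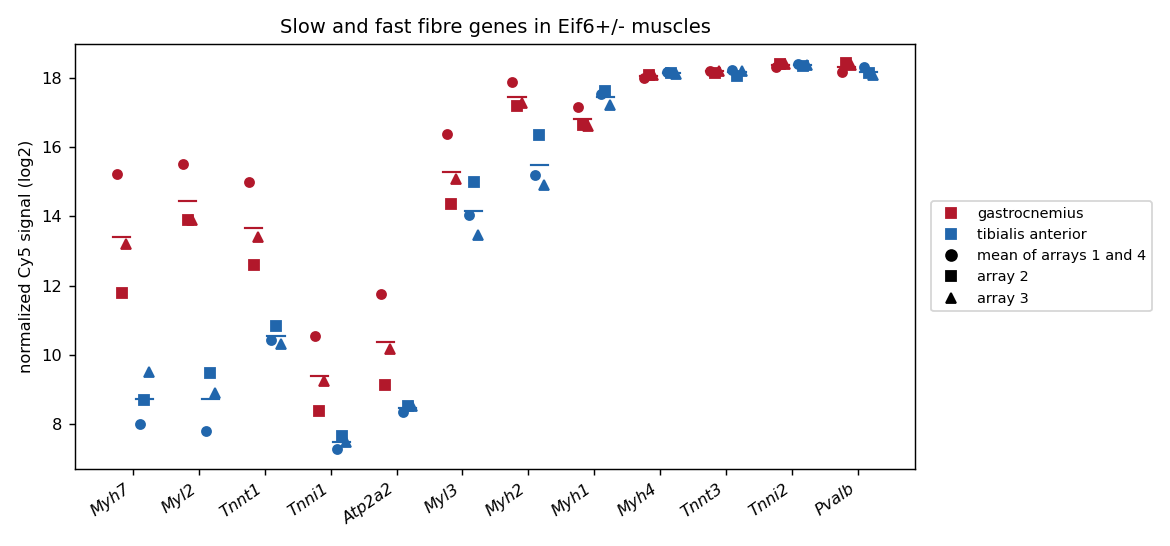
Points are the log2 Cy5 signals of fibre type genes in the 3 Eif6+/- gastrocnemius (red) and 3 Eif6+/- TA (blue) samples, with the mean of each group as a bar. Myl2, Myh7 and Tnnt1 separate the muscles by 3.13 to 5.69, while the groups of Tnni2 and Tnnt3 overlap.

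None of the fast fibre genes passed the test. Of 16 measured, limma called 0 in either direction, 3 had an unadjusted p under 0.05 and the groups did not overlap for 4. Differences ran from −0.65 to 1.97 with a median of 0.10, or −0.10 with spiked-in scaling, which is still above its median of all genes. Myh4, the heavy chain of the fastest (IIb) fibres, read 17.98, 18.07 and 18.07 in gastrocnemius and 18.17, 18.14 and 18.09 in TA, a difference of −0.10 (adjusted p = 0.508) that was 0.00 with cyclic loess, although the groups did not overlap. Myh1, the IIx chain, had a difference of −0.65 (adjusted p = 0.113), with 16.61 to 17.17 in gastrocnemius and 17.21 to 17.62 in TA. The IIa chain Myh2 went the other way, with 17.88, 17.19 and 17.26 in gastrocnemius and 15.20, 16.35 and 14.89 in TA. Its groups did not overlap, but the difference of 1.97 (SE 0.35) did not pass the test (adjusted p = 0.0588), though it did with spiked-in scaling and without TA sample 2 (adjusted p up to 0.181 over all alternatives). The fast troponins Tnnt3 (0.03) and Tnni2 (0.00) differed by less than the spread between samples and changed sign under spiked-in scaling. Atp2a1, the calcium pump of fast fibres, differed by 0.21 (adjusted p = 0.334), or −0.08 with spiked-in scaling, while Pvalb, the calcium buffer parvalbumin, differed by 0.14 (adjusted p = 0.473) with overlapping groups.

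Among the 13 myosin heavy chain genes on the array, all measured, Myh7 was the single one called by its brightest probe, and limma gave an unadjusted p under 0.05 for 5. The groups did not overlap for 5 and the median difference was −0.06, or 0.11 with cyclic loess. Probes for these genes can pick up RNA of near-identical members of the family, so levels of single members are uncertain. Myh3 and Myh8, the embryonic and perinatal chains, differed by −0.20 and −0.05 and changed sign under some alternatives. The other kept probe of Myh8 was called, with a difference of 0.78, so the probes of this gene disagreed. Of 8 developmental sarcomere genes 7 were kept, and by their brightest probe limma called 0 (1 with spiked-in scaling or without TA sample 3), with 1 at an unadjusted p under 0.05 and 0 without overlap. Their median difference was 0.13, which turned to −0.03 with spiked-in scaling.

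Of the transcription factors that pattern the limb and its muscles, Six2 and Tbx1 had the largest differences, in opposite directions. Six2, a homeobox factor, read 10.86, 11.24 and 10.97 in gastrocnemius and 8.51, 8.77 and 8.00 in TA. The groups lay far apart, with a difference of 2.60 (SE 0.19, 6.05-fold, adjusted p = 0.00459). The other kept probe of Six2 gave a smaller difference, 1.27, in the same direction, so the size is uncertain. Tbx1, a T-box factor known from head and pharyngeal muscle, was the gene with the largest difference towards TA. It read 10.86, 9.75 and 10.23 in gastrocnemius and 13.83, 13.61 and 13.23 in TA, a difference of −3.28 (SE 0.26, adjusted p = 0.00459). Both calls were lost with Agilent's processed signal (adjusted p = 0.0582 and 0.0687) and under no other alternative tried. Eya2, a transcriptional cofactor from the eyes absent family, was higher in gastrocnemius at 9.16, 8.75 and 8.76 against 7.77, 7.81 and 8.20 (difference 0.97, adjusted p = 0.0476). That call was lost without any 1 of the samples except TA sample 3, with an adjusted p of up to 0.657 over the alternatives. Sim1, a bHLH-PAS factor, was not well above background on any of the 4 gastrocnemius arrays and was kept through its 4 TA arrays alone, so its call is not support for a difference in the list. Its log2 signal in TA was 6.77, 7.05 and 6.99, at least 1.75-fold higher than in gastrocnemius (adjusted p = 0.0258), where the bound uses the dimmest signal well above background on each array or the probe's own signal, whichever is higher. Sim1 lost its call without any 1 gastrocnemius sample, or without TA array 1 or sample 2 (adjusted p up to 0.286 over all alternatives).

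Of 46 limb and muscle patterning factors on the array, 37 were measured, 2 were called higher in gastrocnemius (Six2 and Eya2) and 2 higher in TA (Tbx1 and Sim1). Without Sim1 the count in TA is 1. The number called in this list was 10 with 8 separate arrays. It was 2 with spiked-in scaling and with the replicate number as a block, and 0 with Agilent's processed signal. The groups did not overlap for 14, and the median difference was 0.00, near that of all genes. Irx3 (−0.69) and Pax3 (−0.46) were lower in gastrocnemius without passing the test. Hox genes, whose order along the chromosome follows their order along the body axis, were measured for 24 of 39. Of these 1 was called higher in gastrocnemius and 0 higher in TA, with 13 not overlapping. That gene was Hoxd9, with 8.50, 8.98 and 8.94 in gastrocnemius and 6.42, 6.29 and 7.46 in TA, a difference of 2.09 (adjusted p = 0.0338; 1.79 to 3.46 over the alternatives). It was well above background on 1 of the 4 TA arrays, so the size of its difference is uncertain and with a filter of all 8 arrays 0 Hox genes were called. The call was lost without any 1 sample except TA sample 3 (adjusted p up to 0.152 over all alternatives). Its neighbour Hoxd8 read 9.21, 9.41 and 9.60 in gastrocnemius and 6.94, 6.98 and 8.39 in TA, a difference of 1.97 that did not pass (adjusted p = 0.0587), and Hoxd10 differed by 0.56. In both Hoxd9 and Hoxd8, TA sample 3 lay above the other TA samples. Hoxa3 (−0.67) and Hoxc6 (−0.54) went the other way, and 9 of the 24 differences were positive. The number of Hox genes called was 9 with 8 separate arrays, 2 with spiked-in scaling and 0 with Agilent's processed signal.

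Other genes of large difference towards gastrocnemius were Myom3, Aldh1a2, Musk, Tppp3, Tmem232, Folr2 and Lyve1. Myom3, a protein of the M-band, read 12.90, 12.18 and 12.19 in gastrocnemius and 9.28, 10.78 and 10.15 in TA, a difference of 2.35 (SE 0.35, adjusted p = 0.0430). Aldh1a2, which makes retinoic acid, read 9.11, 9.26 and 9.49 against 7.98, 7.97 and 7.83 (difference 1.36, adjusted p = 0.00459). All 3 TA samples of Aldh1a2 lay close together. Musk, the receptor kinase that organises the neuromuscular junction, read 8.93, 9.29 and 8.97 in gastrocnemius and 7.69, 7.99 and 8.11 in TA (difference 1.14, adjusted p = 0.0258). Of 19 neuromuscular junction genes 18 were measured and Musk was the single one called, with 3 not overlapping and a median difference of −0.05. Tppp3, a tubulin-binding protein, differed by 1.1 (adjusted p = 0.0215) and Tmem232 by 1.11 (adjusted p = 0.0391). Leaving out any 1 of the 6 samples ended the call of Myom3 (adjusted p up to 0.129 over all alternatives). Leaving out gastrocnemius sample 2 or TA sample 1 or 2 ended those of Musk, Tppp3 and Tmem232, and so did spiked-in scaling and normexp offset 0 (up to 0.160, 0.321 and 0.222 over all alternatives). Musk and Tmem232 were lost without gastrocnemius sample 3 as well, while Aldh1a2 was called without any single sample but not with Agilent's processed signal or with the replicate number as a block.

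**Figure D4:**
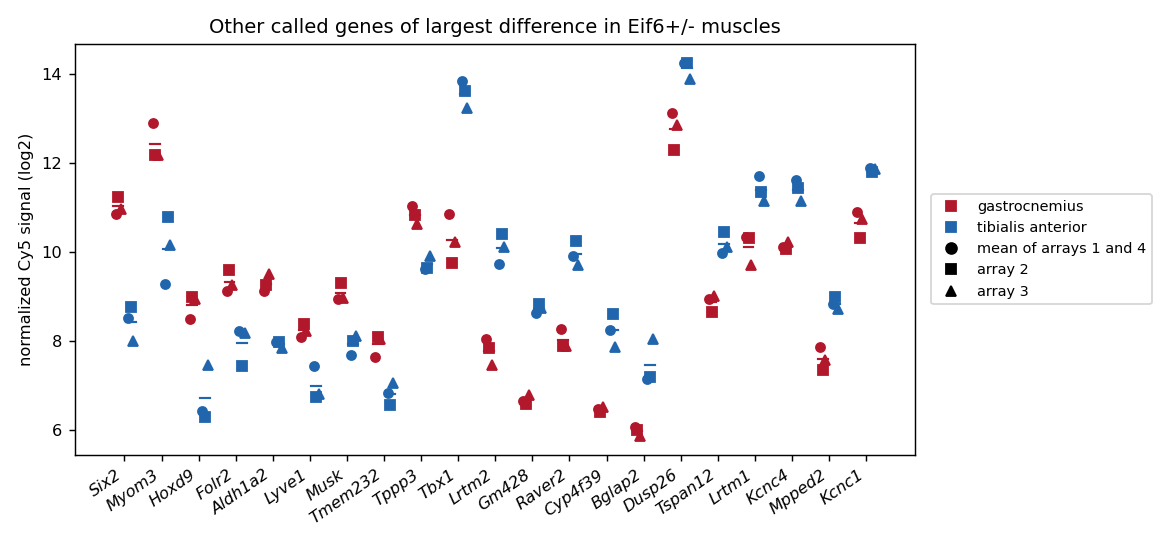
Points give the log2 Cy5 signal of the called genes with the largest differences, beside Myl2, Myh7 and Tnnt1, in the 3 Eif6+/- gastrocnemius (red) and 3 Eif6+/- TA (blue) samples, with the mean as a bar. The groups do not overlap for any gene shown, from Six2 (difference 2.60) to Tbx1 (−3.28).

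Folr2, a folate receptor of resident macrophages, read 9.12, 9.59 and 9.26 in gastrocnemius and 8.21, 7.43 and 8.18 in TA (difference 1.39, adjusted p = 0.0470). Lyve1, a hyaluronan receptor of lymphatic vessels and of some macrophages, read 8.09, 8.39 and 8.23 against 7.44, 6.74 and 6.79 (difference 1.24, adjusted p = 0.0391). TA sample 1 was the highest TA sample for Lyve1, and both calls were lost without any 1 gastrocnemius sample or without TA sample 2 (adjusted p up to 0.160 for Folr2 and 0.169 for Lyve1 over all alternatives). Folr2 was also lost without TA sample 1 and Lyve1 without TA sample 3. Fcna and Cbr2 were picked after their values were seen because they too are known from resident macrophages. They were called with differences of 1.09 each. Neither is in the list of macrophage markers, and their calls are not used as support for a difference in that list.

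After Tbx1, the largest difference towards TA was that of Lrtm2. Lrtm2, a transmembrane protein with leucine-rich repeats, read 8.04, 7.84 and 7.46 in gastrocnemius and 9.72, 10.41 and 10.12 in TA, a difference of −2.30 (adjusted p = 0.00560). The related Lrtm1 differed by −1.28 (adjusted p = 0.0460). Gm428, a gene model with no given role, read 6.64, 6.58 and 6.78 in gastrocnemius and 8.62, 8.82 and 8.75 in TA. Its difference of −2.06 had the smallest adjusted p of all genes, 0.000254, and Gm428 was the single named gene called under all 25 alternatives. Over these the difference ran from −3.305 to −1.846, so its size is uncertain. Raver2, an RNA-binding protein, read 8.27, 7.89 and 7.89 against 9.91, 10.25 and 9.71 (difference −1.94, adjusted p = 0.00459). Kcnc4 and Kcnc1, voltage-gated potassium channels of the fast-acting Kv3 family, differed by −1.27 (adjusted p = 0.0112) and −1.19 (adjusted p = 0.0258). Kcnc1 read 10.91, 10.32 and 10.75 in gastrocnemius and 11.88, 11.80 and 11.87 in TA, and its 3 probes all went this way.

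The phosphatase Dusp26 read 13.12, 12.30 and 12.85 in gastrocnemius and 14.24, 14.26 and 13.88 in TA (difference −1.37, adjusted p = 0.0391). Tspan12, a tetraspanin, differed by −1.31 (adjusted p = 0.0185) and Mpped2, a metallophosphoesterase, by −1.25 (adjusted p = 0.0186). Cyp4f39, a cytochrome P450 that acts on fatty acids, differed by −1.79 (adjusted p = 0.00880) and was well above background on 2 of the 4 gastrocnemius arrays. The size of its difference is thus uncertain (−3.418 to −1.554 over the alternatives). Bglap2, an osteocalcin gene, was not well above background on any gastrocnemius array, was kept through its 4 TA arrays alone, and was at least 2.70-fold higher in TA (adjusted p = 0.0394), a call that, like that of Sim1, is not used as support. Tbc1d1, which regulates glucose transport and was picked after its values were seen, read 11.87, 11.70 and 11.46 in gastrocnemius and 12.71, 12.98 and 12.79 in TA (difference −1.15, adjusted p = 0.0175). Leaving out gastrocnemius sample 2 ended the calls of Kcnc4, Tspan12, Mpped2, Dusp26, Cyp4f39, Bglap2 and Lrtm1, with no change of direction. Leaving out TA sample 2 ended those of Kcnc1, Kcnc4, Mpped2, Dusp26, Bglap2 and Lrtm1. Without gastrocnemius sample 3 or TA sample 1 the calls of Kcnc1, Mpped2, Dusp26, Bglap2 and Lrtm1 were lost, and without gastrocnemius sample 1 those of Bglap2 and Lrtm1. The adjusted p of these 8 genes reached at most 0.188 over the alternatives, that of Lrtm1, while Lrtm2, Raver2 and Gm428 were called without any single sample. With Agilent's processed signal and with the replicate number as a block Lrtm2 and Raver2 lost their calls. Of the 81 called genes 21 had at least 2 kept probes, and in 20 of them the probes went in 1 direction, Fam13c being the exception (−0.39 to 0.68).

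Genes of oxidative metabolism were followed as lists too, and whether they differed from the slow fibre genes was not tested. None of 80 oxidative phosphorylation genes was called in limma (0, with 22 at an unadjusted p under 0.05; 1 with 75th percentile scaling, 2 without TA array 4 and 8 with 8 separate arrays), the groups did not overlap for 21, and 10 differences were positive. The median difference was −0.16, and it stayed below the median of all genes and below 0 under each scaling (−0.14 to −0.40). Of 18 tricarboxylic acid cycle genes 0 were called in limma (4 with 8 separate arrays) and 6 had an unadjusted p under 0.05. In this list 7 did not overlap, and there were 2 positive differences and a median of −0.16. The larger of the positive ones was that of Idh2, mitochondrial isocitrate dehydrogenase, with 1.00, which did not pass. For 27 genes of fatty acid uptake and oxidation the median was −0.10, 0 were called and 6 had an unadjusted p under 0.05, and 6 did not overlap. Mb, the oxygen carrier myoglobin, differed by −0.33 and Ppargc1a, a coactivator of mitochondrial genes, by 0.14, or −0.03 with spiked-in scaling.

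Of 31 genes of glycolysis and glycogen 30 were measured, and limma called 0 (1 without TA sample 3, 3 with 8 separate arrays), with 4 at an unadjusted p under 0.05 and 7 not overlapping. The median of 0.03 turned to −0.07 with 75th percentile scaling and to −0.18 with spiked-in scaling. Of 29 calcium handling genes 27 were measured, 0 called, 4 at an unadjusted p under 0.05 and 8 not overlapping, with a median of 0.13, or −0.09 with spiked-in scaling, which is still above its median of all genes. Regulators of fibre type (39 of 42 measured) had 0 called, 6 at an unadjusted p under 0.05, 9 not overlapping and a median of −0.03.

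Markers of other cell types were followed as whole lists, since whole muscle holds more than fibres. In such bulk RNA, fewer cells of a type and less RNA per cell cannot be told apart. The summed signal of a list is the sum of its linear Cy5 signals in a sample. Of 14 macrophage markers 12 were kept and 2, Folr2 and Lyve1, were called higher in gastrocnemius, with 7 not overlapping and 12 positive differences (median 0.51). The number called was 0 with loess and Aquantile and without any 1 gastrocnemius sample or TA sample 2, and 4 with 8 separate arrays. Their sum was 11370, 13000 and 11790 in gastrocnemius samples 1 to 3 and 11690, 6046 and 9560 in TA, so TA sample 1 stood at the level of gastrocnemius. The brightest was H2-Ab1, while Cd68 and Cd163 gave no measurement here. Tendon and fibroblast markers (19 of 20 on the array, all kept) had a median difference of 0.62, with 16 positive and 5 not overlapping. Their sum was 320600, 210800 and 220100 in gastrocnemius and 125900, 95840 and 313200 in TA, Col1a2 being the brightest. TA sample 3 stood apart from the other TA samples, and without sample 3 of both muscles the median was 1.1 and 60 genes were called in all, 63.3% of them higher in gastrocnemius. Limma called 0 tendon markers, with 9 at an unadjusted p under 0.05, while 2 were called without TA sample 3, 3 with spiked-in scaling and 8 with 8 separate arrays.

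Adipocyte markers (15 of 16 kept, Lep being too dim) had a median difference of 0.84, 13 positive and 6 not overlapping. Limma called 0, and 10 had an unadjusted p under 0.05, while 5 were called with spiked-in scaling, 1 without sample 3 of both muscles and 6 with 8 separate arrays. Their sum was 148500, 144000 and 72050 in gastrocnemius and 106400, 85330 and 90520 in TA, with gastrocnemius sample 3 below all TA samples, and Car3, which fibres also express, was the brightest. Schwann cell markers (12 of 13 kept, Cdh19 too dim) all had positive differences, with a median of 0.51 and 4 not overlapping. Limma called 0 and gave 7 at an unadjusted p under 0.05, while 2 were called without gastrocnemius sample 3 and 6 with 8 separate arrays. The sum was 8942, 10400 and 5200 in gastrocnemius and 4505, 4763 and 4612 in TA, and Pmp22 was the brightest. Smooth muscle markers (6 of 6) were positive in all, median 0.52, with 3 not overlapping, 0 called by limma (1 without gastrocnemius sample 3, 2 with 8 separate arrays) and 4 at an unadjusted p under 0.05. Their sum was 25270, 21780 and 15820 against 16860, 14540 and 13210, with Smtn the brightest.

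Endothelial and pericyte markers (16 of 16) had a median difference of −0.24, with 5 positive differences and 7 not overlapping. Limma called 0 of these markers (3 with 8 separate arrays) and gave 8 at an unadjusted p under 0.05. Their sum was 28660, 25470 and 28170 in gastrocnemius and 31880, 31630 and 33490 in TA, and Egfl7 was the brightest. Of 18 blood cell markers 11 were kept, with a median of 0.36, 6 positive differences and 4 not overlapping, 0 called by limma and 4 at an unadjusted p under 0.05. The median was 0.17 without sample 3 of both muscles and 0.18 with spiked-in scaling, and 2 markers were called without TA sample 1. S100a8, Ngp, Ltf, Cd79a, Ms4a1 and Cd3g were among those too dim to be kept, and Hba-a2 was the brightest. The blood sum was 110700, 113300 and 115200 in gastrocnemius and 110700, 58390 and 64430 in TA, so TA sample 1 again read like gastrocnemius. The part of these cell types in the differences between the muscles was not tested.

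The remaining lists held 0 called genes in limma with 3 samples a muscle. Satellite cell genes (13 of 14 kept) had 2 at an unadjusted p under 0.05, 5 not overlapping and a median of −0.13. Immediate early genes (18 of 22) had 3, 3 and −0.04 for the same measures, circadian clock genes (17 of 19) had 6, 7 and −0.10, and atrophy and growth genes (19 of 20) had 5, 6 and 0.06, the last turning to −0.03 with 75th percentile and −0.14 with spiked-in scaling. Of 5 sex-linked genes 3 were kept, with 0 at an unadjusted p under 0.05, and Xist and the Y-linked Kdm5d were too dim to be kept.

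WT muscles, read in Cy3 on the same arrays, give the muscle difference without the mutation, with 4 samples of each muscle. They lie in the same slide rows as the Eif6+/- channels, so row and muscle cannot be told apart here either. There 1462 of 12359 genes (11.8%) were called, 547 higher in gastrocnemius and 915 higher in TA. Leaving out WT gastrocnemius array 3 gave 682 genes, and leaving out WT TA array 2, 3 or 4 gave 769, 719 or 644. The larger count rests on more samples in another dye and is not a measure of genotype. Of the 81 genes called in Eif6+/- mice 79 were measured in WT, and 66 were called there in the same direction. Six2 differed by 2.60 in Eif6+/- and 2.46 in WT mice. Tbx1 differed by −3.28 and −4.09, Myl2 by 5.69 and 4.39, and Myh7 by 4.67 and 3.85. Values further apart included Myh2, with 1.97 in Eif6+/- and 0.37 in WT mice, and Myom3, with 2.35 and 1.29. For oxidative phosphorylation genes the medians were −0.16 and −0.44.

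The difference between genotypes in the muscle difference was tested directly, as the change of the Eif6+/- to WT ratio between muscles. Limma called 0 of 13053 genes (0%) for this interaction, with 805 at an unadjusted p under 0.05 and a smallest adjusted p of 0.792, so a difference between Eif6+/- and WT mice in muscle identity genes was not detectable with these samples.

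**Figure D5:**
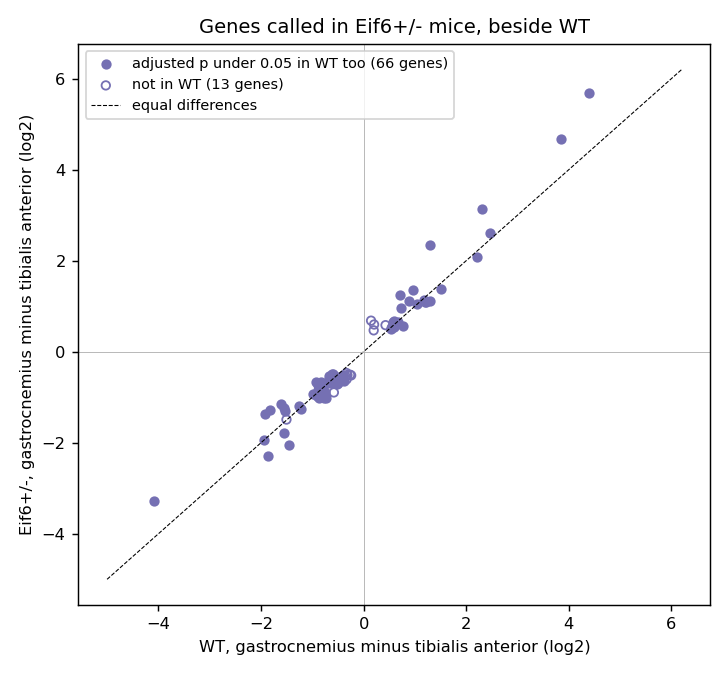
Each point is a gene called in Eif6+/- mice, with its log2 difference, gastrocnemius minus TA, in WT mice (n = 4 samples each) on the horizontal axis and in Eif6+/- mice (n = 3 samples each) on the vertical axis. Myl2 (5.69 in Eif6+/-, 4.39 in WT) and Tbx1 (−3.28 and −4.09) mark the extremes, the dashed line is equality, and filled points are the 66 genes also called in WT.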

How the data were processed

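Labelled RNA of Eif6+/- (Cy5) and WT (Cy3) muscle was measured on 8 Agilent arrays of 62976 spots. The authors deposited spot intensities from Feature Extraction 10.5.1.1 that are not normalized, with local background and quality marks, and the deposited log10 ratios of Cy5 over Cy3 are background-subtracted and dye-normalized by that software. The authors also deposited a table of log2 ratios, with column medians of 0.00257, 0.000831, −0.00441 and 0.00375 (gastrocnemius 1 to 4) and 0.00138, −0.000366, 0.00288 and 0.00212 (TA 1 to 4). Each column correlated at 0.999963 or more, over probes, with loess ratios of intensities without background correction, so its scale (log2), centring (near 0) and direction (Cy5 over Cy3) are known.

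Median Cy5 signals (60.0 to 74 per array, over backgrounds of 41.0 to 44.0) were corrected with normexp (offset 50), quantile-normalized across the 8 Cy5 channels and taken to log2. Control and outlier spots were dropped and spots of a probe averaged. A probe was kept if well above background on at least 4 of the 8 arrays, whatever their muscle. Of 55681 probes 28685 had a RefSeq accession, and 27235 were matched to 20660 genes through the RefSeq table of GRCm38.p6. In all 25425 probes and 13053 genes were kept, each gene by its kept probe of highest mean signal. Differences are gastrocnemius minus TA from limma 3.58.1 (lmFit and eBayes, R 4.3.3), with Benjamini-Hochberg adjustment over kept probes and a threshold of 0.05. All adjusted p-values are from limma and are 2-sided. The number of arrays limits the precision, and an exact permutation test of 3 against 3 samples was not used because it cannot go below 0.10. Levels of different probes were set together only to name the brightest gene of a list and to sum its signals, and both depend on how well each probe binds.

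The plan had 8 separate Eif6+/- samples. Arrays 1 and 4 of each muscle were merged after the values, and the counts with 8 samples, had been seen. This also holds for the interaction, fitted on loess and Aquantile ratios, while WT kept 4 samples of each muscle. Alternatives were other normalizations, background corrections, filters, thresholds, variance models and probe summaries, the replicate number as a block, and leaving out arrays. Slide row coincides with muscle and could not be fitted. The fit was tested on simulated data, but no outcome of that test is given here.

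Named genes were Eif6 and 18 fibre genes whatever their result, the 12 called genes of largest difference in each direction whose groups did not overlap, and per list up to 4 called members or, with none called, the brightest. Other list members were named after their values were seen. The gene lists and samples were chosen with earlier results of these data known. Plots used matplotlib 3.10.9 in Python 3.11.15.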

Additional observations from a re-analysis of the deposited data

Results flagged for a closer look

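Each named gene's 4 WT values per muscle were searched for a sample far from the other 3, and 7 of 118 such groups held one. Chance flags about 1 in 20 groups. The Eif6+/- groups of 3 samples are too small for this search. In WT gastrocnemius, log2 signals stood apart for Casq2 on array 1 (8.41, others 8.97 to 9.01), Nr4a1 on array 1 (12.87, others 13.34 to 13.40), Lrtm1 on array 3 (8.73, others 9.16 to 9.23) and Car3 on array 3 (14.71, others 15.21 to 15.26). On WT gastrocnemius array 4, Lrtm2 read 6.63 (others 6.37 to 6.42) and Mdh2 read 15.59 (others 15.23 to 15.27). In WT TA, Tbx1 read 12.80 on array 1 (others 12.50 to 12.55), still far above WT gastrocnemius.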

How the results depend on the processing

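The count of 81 genes called between Eif6+/- muscles stayed within 1.5 times of itself under other scalings, without background correction, under other filters and with trend (55 to 95), but with spiked-in scaling only 25 of the 63 genes were among the 81. It was 12 with normexp offset 0, 1 with Agilent's processed signal, 39 with genes as the mean of their probes, 497 at a threshold of 0.1, and 1165 with the 8 arrays as separate samples, of which all 81 were part. This last alternative, leaving out arrays 1 and 4 together and leaving out sample 3 of both muscles were chosen after seeing the data. Leaving out single arrays gave 9 to 99 genes, and leaving out arrays 1 and 4 together gave 26 (gastrocnemius) or 23 (TA). The WT count of 1462 became 2494 at a threshold of 0.1, and 644 to 1504 without single arrays. The interaction count stayed 0 under all its alternatives, with 339 to 1798 genes at an unadjusted p under 0.05.

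The replicate number as a replicate block left 3 called genes. Deviations of samples with the same number correlated at 0.149 (sample 1), −0.0165 (2) and −0.00953 (3) over genes. Gastrocnemius sample 1 correlated best with TA sample 1. Sample 2 of gastrocnemius also correlated best with TA sample 1 (0.0106), and sample 3 with TA sample 2 (0.172). These values do not show a pairing for samples 2 and 3, and whether a number marks the same mouse in both muscles remains unknown.

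Of 60 named genes 26 were called, and 0 of these changed direction under any alternative. Over 1496 values under alternatives, 1216 kept direction and side of the threshold, 202 lost the call, 16 gained it and 62 changed sign, all in 18 genes without a call. The cause was not tested. With cyclic loess Myh4 was 0.003, Myh8 0.11 and Acta1 0.124. With spiked-in scaling Atp2a1 was −0.077, Tnnt3 −0.132, Tnni2 −0.113, Ppargc1a −0.033, Myl4 −0.028, Fabp3 −0.003, Aldoa −0.119, Car3 −0.061 and Smtn −0.012. With 75th percentile scaling Tnnt3 was −0.019 and Aldoa −0.006, and after loess and Aquantile Tnnt3 was −0.05, Tnni2 −0.049 and Aldoa −0.045. With the mean of probes Myh8 was 0.363, Tnnt3 −0.074 and Cd34 0.024, and with Agilent's processed signal Acta1 was 0.001 and Eya1 0.049. Without sample 3 of both muscles Tnni2 was −0.013, Acta1 0.042, Eya1 0.079, Cd34 0.062 and Igfbp5 0.038, and with 8 separate arrays Myh3 was 0.084, Tnni2 −0.021, Casq2 0.012 and Eya1 0.02. Without arrays 1 and 4 of gastrocnemius Myl4 was −0.049, Cd34 0.044 and Car3 −0.05, and without those of TA Myl4 was −0.218, Igfbp5 0.136, Eif2s3y 0.05 and Aldoa 0 after rounding. Without single arrays the ranges were −0.613 to 0.574 for Myh3, −0.024 to 0.053 for Tnnt3, −0.016 to 0.016 for Tnni2, −0.19 to 0.074 for Casq2, −0.074 to 0.053 for Acta1, −0.044 to 0.069 for Eya1, −0.155 to 0.078 for Cd34, −0.064 to 0.586 for Car3, −0.157 to 0.162 for Igfbp5 and −0.498 to 0.057 for Eif2s3y.

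Slide row coincides with muscle, dyes were not swapped and 3 samples a muscle are few. Signal over background limits dim genes: 13053 of 20660 genes were kept.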

Other observations

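Further called genes were picked after their values were seen and stand for no group. Their values under the alternatives are not given. Over all genes, 9 were called without gastrocnemius sample 2, 12 without TA sample 2 and 3 with the replicate number as a block. Higher in TA were Kcnn2, a calcium-activated potassium channel (−0.93, limma adjusted p = 0.0186), and Cacna2d4, a calcium channel subunit (−1.03, adjusted p = 0.0313). The thiamine transporter Slc19a2 (−0.67, adjusted p = 0.0430) and the nucleoside transporter Slc28a2 (−0.62, adjusted p = 0.0338) went the same way. So did Smad3, which relays TGF-beta signals (−0.56, adjusted p = 0.0476), Inha, an inhibin subunit (−0.98, adjusted p = 0.0391), and Pfkfb2, a regulator of glycolysis (−0.69, adjusted p = 0.0453).

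Higher in gastrocnemius were Klhl40 and Fbxo40, muscle proteins linked to ubiquitin ligases, with differences of 0.57 (adjusted p = 0.0258) and 0.53 (adjusted p = 0.0391). Fgfr1, a growth factor receptor, differed by 0.57 (adjusted p = 0.0470), and Ppp1r3d, which directs protein phosphatase 1 to glycogen, by 1.06 (adjusted p = 0.0391). Nid2, a basement membrane protein, differed by 0.54 (adjusted p = 0.0455). The 3 Eif6+/- samples of each muscle did not overlap for any of these genes, as for all 81 called.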
